A study of Mus musculus with 10 samples.

Results

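Among the probes of the mouse long noncoding RNA and messenger RNA array used here, 1092 carry a name that starts with humanlincRNA, out of 60823 probes that are not array controls. All 1092 were kept, with no filter on signal. Their names hold 557 different numbers between 2 and 2514, each followed by a + or a - sign. There are 542 + probes and 550 - probes, and 535 numbers have a probe of each sign. Of the other 22 numbers, 7 have the + probe alone and 15 the - probe alone. Each probe was printed at 1 spot, and the systematic name of each of the 1092 is the probe name itself. The files thus pair none of these probes with a gene, an accession or a position, and probe sequences were not used here. The sources used here do not give whether a probe bears human sequence or the mouse counterpart of a human transcript, nor which strand a + or - refers to.

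The RNA came from extracellular vesicles of whole brain, prepared by differential ultracentrifugation. The mice were adult females of the inbred strain C57BL/6J. One group inhaled ethanol vapor intermittently, in daily sessions of 8 h on 5 days of each week over 4 weeks, and the other group had room air on the same schedule. Brains were taken straight after the last exposure, and roughly 3 µg of RNA from each sample was amplified and labelled with Cy3. Each group has 5 arrays with 1 sample each, and the labels do not say that the samples came from separate animals, so each p-value refers to the spread among these arrays and part of that spread may be technical. The arrays fall into 2 sets that share a scan identifier in the file headers. Set 1 holds room air replicates 1, 2 and 3 and ethanol vapor replicate 4, and set 2 holds room air replicates 5 and 9 and ethanol vapor replicates 6, 7, 8 and 10. Because both sets hold both groups but unevenly, ethanol vapor was compared with room air within the sets.

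Long intergenic noncoding RNAs, or lincRNAs, are transcripts that lie between protein-coding genes and are spliced and often polyadenylated, yet are not translated into known proteins. They are known for tissue-restricted expression, many of them in brain, and for sequences that change faster between species than coding exons, so that a human lincRNA often has no close match in mouse. Extracellular vesicles are membrane-bound particles that cells shed with a cargo of RNA and protein. A hybridisation probe on an array reads whatever labelled nucleic acid binds its sequence, so its brightness can include RNA other than the transcript it is named for. The probes were therefore set against reference levels of the same array. Probes named MM9NEGATIVE are negative probes of this array, 15 in number with 3 spots each. E1A spots are spike-in control spots of the array maker that carry adenoviral sequence, 350 spots of 10 probes, and the sources used here do not say whether spike-in RNA was added. The scanner software also marks each spot that lies well above its background.

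Intensities are processed signals on a linear scale, and a level is the log2 intensity minus the 75th percentile of the array. Brightness differs between probes for reasons of sequence as well as amount, so probes are set against the controls and no probe is ranked against another as an RNA amount. The controls themselves differed between the sets. The median intensity of the MM9NEGATIVE probes was 12.3 to 16.8 on set 1 and 50.3 to 72.8 on set 2, and the median of the E1A spots was 24.3 to 28.7 on set 1 and 79.9 to 115 on set 2. No spot of a humanlincRNA probe was saturated, and 9 of 10920 values were missing because the spot was marked as non-uniform, 6 of them on ethanol vapor replicate 4. Of 14 brain, vesicle and other tissue markers looked for, 3 had a named probe, and those of Mbp (a myelin protein), Chgb (a secretory granule protein) and Apoe (a lipid carrier) were well above background on 10 of 10 arrays. Their lowest intensities were 406, 126 and 380. The brightest MM9NEGATIVE probe stood at 126 to 184 on set 2, so the dimmest Chgb reading was not clear of that range.

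A sizeable minority of the humanlincRNA probes read above the negative probes on each array, and the share depended on the set. On set 1, 374, 471, 513 and 377 of the 1092 probes exceeded the 95th percentile of the MM9NEGATIVE probes on room air replicates 1, 2 and 3 and ethanol vapor replicate 4. On set 2 the counts were 355 and 301 on room air replicates 5 and 9, and 255, 304, 269 and 259 on ethanol vapor replicates 6, 7, 8 and 10. The shares ran from 23.4% to 47.0%, and the sets did not overlap, with the lowest array of set 1 at 34.3% and the highest of set 2, room air replicate 5, at 32.5%. By construction 6.67% of the MM9NEGATIVE probes, 1 of 15, lie above this limit. Each negative probe is an average of 3 spots and each humanlincRNA probe is 1 spot. The effect of this on the counts was not tested. The limit itself stood at an intensity of 45.6 to 54.9 on set 1 and 119 to 170 on set 2. Across the sets the share was 39.8% ± 6.30 (SD, n = 4) on set 1 and 26.6% ± 3.47 (SD, n = 6) on set 2, a difference of -13.2 percentage points (exact permutation test over 210 splits, two-sided, p = 0.00476, the smallest it allows, adjusted p = 0.00794 over 5 measures). Over all probes of the array the share above this limit was 51.2% to 62.7% on set 1 and 38.3% to 50.8% on set 2. A lower share on set 2 was thus also seen over the whole array. The set tests of these 5 measures have no term for the group, which the sets hold unevenly, so part of a set difference may be one of group.

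The E1A spots set a higher bar, since their upper tail is brighter. Their 95th percentile was at an intensity of 151 to 228 on set 1 and 246 to 414 on set 2. On set 1, 197, 194, 224 and 170 humanlincRNA probes exceeded it on room air replicates 1, 2 and 3 and ethanol vapor replicate 4. On set 2 it was exceeded by 162 and 132 on room air replicates 5 and 9, and by 140, 193, 135 and 138 on ethanol vapor replicates 6, 7, 8 and 10. That is 12.1% to 20.5% of the probes, and ethanol vapor replicate 7 of set 2 (17.7%) overlaps set 1. The mean share was 18.0% ± 1.99 (SD, n = 4) on set 1 and 13.7% ± 2.16 (SD, n = 6) on set 2 (exact permutation test, two-sided, p = 0.0143, adjusted p = 0.0143). Without room air replicate 3 that difference was -3.42 percentage points, with p = 0.0595 in the exact permutation test.

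The software's own mark ran the other way between the sets. On set 1, 516, 532, 637 and 476 humanlincRNA probes were marked well above background, in the order given above. On set 2 the numbers were 829 and 738 on the room air arrays and 788, 772, 697 and 631 on the ethanol vapor arrays. The share was 49.5% ± 6.29 (SD, n = 4) on set 1 and 68.0% ± 6.47 (SD, n = 6) on set 2, higher by 18.5 percentage points (exact permutation test, two-sided, p = 0.00952, adjusted p = 0.0119). The negative probes moved with it, since 13.3% to 33.3% of the MM9NEGATIVE probes had the mark on set 1 and 53.3% to 80.0% on set 2. So did the whole array, with 62.0% to 74.5% of all probes marked on set 1 and 75.9% to 87.9% on set 2. On set 2, 46 to 245 humanlincRNA probes an array had the mark and yet lay below the median negative probe, against 0 to 6 on set 1. A probe marked well above background on set 2 is therefore not by that alone above the negative probes, and the counts against the controls are used below.

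The middle of the family sat close to the negative probes. The median intensity of the 1092 probes was 23.0, 31.9, 39.1 and 23.8 on the 4 arrays of set 1, which is 0.55, 1.23, 1.21 and 0.96 above the median MM9NEGATIVE probe on the log2 scale. On set 2 the difference was 0.19 and 0.24 on room air replicates 5 and 9, and -0.01, -0.01, 0.09 and 0.17 on ethanol vapor replicates 6, 7, 8 and 10. Set 1 arrays were all higher in this difference than set 2 arrays (0.99 against 0.11, exact permutation test, two-sided, p = 0.00476, adjusted p = 0.00794). The upper tail was bright on every array, with the 95th percentile of the family at an intensity of 1437 to 4468 and its brightest probe at 87473 to 133127. By the mean level over 10 arrays, 61 of the 1092 probes (5.59%) were within the brightest 10% of all probes, 30 (2.75%) within the brightest 5% and 4 (0.366%) within the brightest 1%.

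Probes of the same array named for mouse lincRNAs, 639 in number with names starting with mouselincRNA, read much like the humanlincRNA probes. Their share above the 95th percentile of the negative probes was 23.9% to 47.9%, and the humanlincRNA share was lower on 8 of 10 arrays, with a mean difference of -1.62 percentage points ± 1.33 (SD, n = 10; exact sign-flip permutation test, two-sided, p = 0.00781). In median level the humanlincRNA probes were lower on 9 of 10 arrays, with a mean difference of -0.11 ± 0.07 (SD, n = 10; exact sign-flip permutation test, two-sided, p = 0.00391). The gap was wider to all other probes with LNC or lincRNA in the name, 28451 in number with the 639 mouselincRNA probes among them. Against these, the humanlincRNA median was lower on 10 of 10 arrays, with differences of -1.40 to -1.14 on set 1 and -0.93 to -0.84 on set 2 and a mean of -1.04 ± 0.20 (SD, n = 10; exact sign-flip permutation test, two-sided, p = 0.00195, the smallest it allows). Over all 60823 probes the share above the negative limit was 38.3% to 62.7%, and the humanlincRNA share minus this share was -16.7 percentage points ± 1.14 (SD, n = 10; exact sign-flip permutation test, two-sided, p = 0.00195). These distances are averages over probes of unlike sequence, and what part of them is due to probe sequence was not tested. Every array reads the same probes, so the sign-flip p-values refer to how a distance repeats over arrays. They do not cover which probes the families hold.

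The array also carries control spots for housekeeping transcripts of both species, 10 spots each, which show how probes named for human sequence read in this mouse RNA. GAPDH encodes a glycolytic enzyme. The spots named Human-GAPDH_3 read at an intensity of 266.5 to 560 and were above the negative limit on 10 arrays and above the E1A limit on 6, while those named Human-GAPDH_5 passed the negative limit on 7 arrays. The spots named Human-PGK1_3, for another glycolytic enzyme, passed it on 5 arrays and those named Human-PGK1_5 on 0 of 10. The mouse GAPDH spots passed both limits on 10 arrays. Their intensities were 564 to 6883 for Mouse-GAPDH_3 and 766 to 2957 for Mouse-GAPDH_5, against 89.8 to 216 for Human-GAPDH_5. The spots named Mouse-PGK1_3 passed the negative limit on 10 arrays and the E1A limit on 3, and those named Mouse-PGK1_5 passed the negative limit on 2 and the E1A limit on 0. Control spots of either species thus ranged widely against the negative probes, but the mouse spots were mostly the brighter ones. On every array the mouse GAPDH spots and Mouse-PGK1_3 were brighter than the matching human spots. Mouse-PGK1_5 was brighter than Human-PGK1_5 except on ethanol vapor replicate 7 (87.8 against 95.3).

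Steadiness was described first by how often a probe exceeded the negative limit. Of the 1092 probes, 204 (18.7%) were above the 95th percentile of the negatives on all 10 arrays, 525 (48.1%) on no array and 363 (33.2%) on some. Over all probes 33.1% were above on every array and 32.0% on none, and over the mouselincRNA probes 20.03% and 45.4%. The count on all arrays was 186 (17.0%, against 30.6% of all probes) against the brightest negative probe and 408 (37.4%, against 59.1%) against their median. It was 204 to 213 when any 1 array was left out. Against the E1A limit 100 humanlincRNA probes (9.16%) were above on all 10 arrays and 839 on none. Of the 1092 probes, 334 were above the negative limit on every array of set 1 and 223 on every array of set 2, and both counts include the 204 that were above on all arrays. Above on all of set 1 and none of set 2 were 58 probes, and the reverse held for 2. The limit itself was at an intensity of 45.6 to 54.9 on set 1 and 119 to 170 on set 2. By the software's background mark the same counts were 3 and 68, so the direction rests on the reference used. Counts by set over all probes were not taken, so these are not shown to be particular to the family.

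Within a set the order of the probes repeated closely, while the median spread of a probe was larger than over all probes. The SD of a probe's level after group and set means were removed had a median of 0.41 on the log2 scale over the 1092 probes. It was 0.27 for the 204 probes above the limit everywhere, 0.35 for the 363 above it on some arrays and 0.48 for the 525 above it on none. The mouselincRNA probes had a median of 0.39, all probes 0.33, and the MM9NEGATIVE probes, each averaged over 3 spots, 0.38. Among probes above the limit on all 10 arrays the median was 0.24 over the whole array and 0.25 over the mouselincRNA probes, closer to the 0.27 of the 204. Repeated spots on 1 array had a median SD of 0.28 on set 1 and 0.25 on set 2 for the MM9NEGATIVE probes and of 0.18 on both for 50 probes printed 10 times. Across the 1092 probes, the rank correlation of levels between arrays was 0.91 to 0.96 for the 21 pairs of arrays from the same set and 0.79 to 0.88 for the 24 pairs from different sets. For the 204 probes it was 0.92 to 0.99 within a set and 0.67 to 0.83 between sets. These are correlations across probes, which share the probe sequence and are not replicates.

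The 535 numbers with a + and a - probe allowed the 2 probes to be set against the same controls, each by itself. In 21 pairs both probes were above the negative limit on all 10 arrays, and in 130 pairs neither was on any array. In 157 pairs exactly 1 probe was above on all 10 arrays. In 91 of these the partner was above on 0 arrays, with the + probe the high one in 48 and the - probe in 43. The number of such pairs was 89 against the brightest negative probe, 84 against their median and 71 against the E1A limit. Array by array, both probes of a pair were above in 31 pairs (ethanol vapor replicate 10) to 129 pairs (room air replicate 3), and exactly 1 in 184 to 245. The mean levels of + and - probes had a rank correlation of 0.05 over the 535 pairs, given as a description. The 307 mouselincRNA pairs showed a like split, with both probes on all arrays in 15, neither on any in 64, and 1 on all with its partner on none in 54.

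The 8 humanlincRNA probes with the highest mean level were humanlincRNA2330+_P1V4 (8.58), humanlincRNA2397+_P1V4 (8.40), humanlincRNA1739+_P1V4 (7.99), humanlincRNA0847-_P1V4 (7.68), humanlincRNA2246+_P1V4 (7.42), humanlincRNA1145+_P1V4 (7.40), humanlincRNA0065-_P1V4 (6.95) and humanlincRNA1516-_P1V4 (6.56). All 8 were above the negative and the E1A limit on 10 of 10 arrays. Their partners of the opposite sign fell into distinct cases. The - probes humanlincRNA2330-_P1V4 and humanlincRNA1739-_P1V4 and the + probe humanlincRNA1516+_P1V4 were above the negative limit on 0 arrays, while the partners humanlincRNA2397-_P1V4, humanlincRNA0847+_P1V4 and humanlincRNA0065+_P1V4 were above on 10 and humanlincRNA2246-_P1V4 and humanlincRNA1145-_P1V4 on 9, the former with 1 value missing.

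The probe humanlincRNA2330+_P1V4 had levels of 8.61, 8.24 and 7.88 on room air and 8.87 on ethanol vapor in set 1, and of 8.37 and 8.79 on room air and 8.86, 8.40, 8.70 and 9.06 on ethanol vapor in set 2. Its intensity was 1453 to 10122 times that of the median negative probe. The partner humanlincRNA2330-_P1V4 had an intensity between 4.55 and 46.7 with a median of 6.70, which is below the median negative probe on every array. The groups overlapped for this probe, and ethanol vapor minus room air was 0.34 (SE 0.214, adjusted p = 0.639, limma with the set as a block).

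The probe humanlincRNA2397+_P1V4 had levels of 7.88, 8.11 and 7.27 on room air and 8.69 on ethanol vapor in set 1, and of 8.35 and 8.75 on room air and 8.88, 8.36, 8.85 and 8.90 on ethanol vapor in set 2. Its partner humanlincRNA2397-_P1V4 was also far above the controls, with intensities of 6625 to 23357. Both probes of this number therefore gave signal on every array. The partner fell by 0.76 from set 1 to set 2 (SE 0.178, adjusted p = 0.00273 by limma), and the + probe was 0.50 higher on set 2 (SE 0.242, adjusted p = 0.0834).

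For humanlincRNA1739+_P1V4 the levels were 7.46, 7.76 and 6.68 on room air and 8.29 on ethanol vapor in set 1, and 7.91 and 8.50 on room air and 8.44, 8.07, 8.27 and 8.52 on ethanol vapor in set 2. Room air replicate 3 was the lowest array in level for this probe, as it was for the other probes of the 8 except humanlincRNA0065-_P1V4. That array had the highest 75th percentile, an intensity of 386, which the level subtracts. In intensity the lowest array of these probes was room air replicate 1, or ethanol vapor replicate 8 for humanlincRNA1145+_P1V4. The probe humanlincRNA0847-_P1V4 ranged from 7.03 to 8.03 with its partner at intensities of 111 to 547. The probe humanlincRNA2246+_P1V4 ranged from 6.57 to 8.09, and humanlincRNA1145+_P1V4 from 7.04 to 7.87. The probe humanlincRNA1516-_P1V4 was the most variable of the 8, from 5.38 to 7.24, with an SD of 0.62 after group and set means were removed. None of these 5 differed between groups or sets at an adjusted p under 0.05 by limma.

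The probe humanlincRNA0065-_P1V4 was the only one of the 8 that passed the threshold between the sets. Its levels were 7.54, 7.59 and 7.22 on room air and 7.67 on ethanol vapor in set 1, and 6.50 and 6.64 on room air and 6.44, 6.48, 6.67 and 6.70 on ethanol vapor in set 2. The sets did not overlap, and set 2 minus set 1 was -0.97 (SE 0.154, adjusted p = 0.000214 by limma). Within set 1 ethanol vapor minus room air was 0.22.

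At the other end, humanlincRNA0689+_P1V4, humanlincRNA0600-_P1V4 and humanlincRNA1341+_P1V4 had the lowest means, all at -5.44. Their intensities were 4.56 to 9.74 and at most 0.542 times that of the median negative probe, and none was well above background on any of 10 arrays. On several arrays the 3 probes read the same value, such as 6.95 on ethanol vapor replicate 6, so their order carries no information. The partner humanlincRNA0689-_P1V4 was nevertheless above the negative limit on 4 arrays, and the partners humanlincRNA0600+_P1V4 and humanlincRNA1341-_P1V4 on 0.

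Among the 204 probes above the negative limit on all arrays, the smallest SD after group and set means were removed was 0.11, for humanlincRNA0312-_P1V4, humanlincRNA1369+_P1V4 and humanlincRNA0842-_P1V4. The probe humanlincRNA1369+_P1V4 read 0.11, 0.24 and 0.32 on room air and 0.27 on ethanol vapor in set 1, and 0.02 and -0.01 on room air and -0.10, 0.19, -0.10 and -0.03 on ethanol vapor in set 2. It was close to flat over all 10 arrays, and its ethanol vapor minus room air difference was 0.01 with a 95% interval of -0.30 to 0.31. The other two probes were steady within a set but stepped between the sets. Levels of humanlincRNA0312-_P1V4 were -0.77, -0.87, -0.87 and -1.09 on set 1 and 0.08 to 0.27 on set 2, and those of humanlincRNA0842-_P1V4 were 0.70, 0.39, 0.43 and 0.79 on set 1 and -0.35 to -0.01 on set 2. Set 2 minus set 1 was 1.11 (SE 0.142, adjusted p = 4.81e-05) for the first and -0.84 (SE 0.142, adjusted p = 0.000317) for the second by limma.

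The largest SD among the 204 belonged to humanlincRNA0635+_P1V4 (0.92), humanlincRNA1907-_P1V4 (0.85) and humanlincRNA2381-_P1V4 (0.70). Levels of humanlincRNA0635+_P1V4 were 0.59, -0.65 and -1.83 on room air and 1.42 on ethanol vapor in set 1, and -0.14 and 0.03 on room air and 0.09, -0.81, -0.25 and 0.23 on ethanol vapor in set 2. The spread lay almost entirely in set 1, and the partner humanlincRNA0635-_P1V4 was well above background on 0 arrays. Levels of humanlincRNA1907-_P1V4 were 3.56, 5.47 and 4.12 on room air and 6.56 on ethanol vapor in set 1, and 5.09 and 5.95 on room air and 5.90, 4.97, 5.67 and 6.17 on ethanol vapor in set 2. Levels of humanlincRNA2381-_P1V4 were 0.83, 1.79 and 0.66 on room air and 2.52 on ethanol vapor in set 1, and 1.61 and 2.62 on room air and 3.12, 1.64, 2.72 and 3.45 on ethanol vapor in set 2. For all 3 probes ethanol vapor replicate 4 was above the room air arrays of its set, the groups overlapped within set 2, and the adjusted p was at least 0.609 by limma.

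Probe by probe, the 2 sets differed for most of the family. With limma and the group as a term, 741 of the 1092 probes (67.9%) passed an adjusted p of 0.05, against 70.7% of all 60823 probes. Of these 610 (55.9%) were higher on set 2, against 55.6% of all probes, and 131 lower, with 15% of all probes lower. The direction rests on the scaling, because the median over all probes was itself 0.74 higher on set 2. With arrays scaled to their median, which moves that shift to -0.14, the split was 316 higher and 314 lower, and with quantile normalisation, at a shift of 0.02, it was 248 and 284. With the 75th percentile taken over probes detected on all arrays, at a shift of 1.22, the split was 824 and 101. The median set difference of the humanlincRNA probes was 0.90, and the share called is near that of the whole array.

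The probes with the largest step up on set 2 were dim. On set 1 humanlincRNA1932-_P1V4 read -4.80, -5.08, -6.24 and -5.14, and on set 2 -0.14 and -2.30 on room air and -1.75, -2.27, -2.23 and -2.35 on ethanol vapor. Levels of humanlincRNA0501-_P1V4 were -6.22 to -5.31 on set 1 and -2.32 to -1.74 on set 2, and those of humanlincRNA2123+_P1V4 were -5.61 to -5.35 and -2.43 to -1.48. All 3 were not well above background on any of the 4 arrays of set 1 and were on all 6 of set 2, so a fold change is given only as a bound. The bound is the mean level of set 2 over the lowest signal among probes well above background on each array of set 1, or the probe's own where that was higher. It came to at least 3.20-fold for humanlincRNA1932-_P1V4, 2.64-fold for humanlincRNA0501-_P1V4 and 2.92-fold for humanlincRNA2123+_P1V4, with fitted adjusted p-values of 4.65e-05, 9.30e-07 and 1.43e-06 by limma. The first was above the negative limit on 1 array, room air replicate 5, with an intensity of 323 against a limit of 136, and the other two were above it on 0 arrays.

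The probes with the largest step down on set 2 were bright on every array. Levels of humanlincRNA2410-_P1V4 were 5.60, 5.32 and 5.28 on room air and 5.53 on ethanol vapor in set 1, and 1.75 and 1.46 on room air and 0.98, 1.87, 0.63 and 1.43 on ethanol vapor in set 2. In intensity this is 10840 to 15047 on set 1 and 341 to 1195 on set 2. Set 2 minus set 1 was -4.00 for this probe (SE 0.259, adjusted p = 9.67e-07 by limma), -3.72 for humanlincRNA2350+_P1V4 (SE 0.215, adjusted p = 5.61e-07) and -3.65 for humanlincRNA2161-_P1V4 (SE 0.175, adjusted p = 2.98e-07). All 3 were above the negative and E1A limits on 10 arrays, and ethanol vapor minus room air was -0.20, -0.15 and -0.23 with adjusted p of 0.842, 0.860 and 0.701 by limma. The partner humanlincRNA2410+_P1V4 was above the negative limit on 10 arrays and differed between the sets by 0.22 (SE 0.184, adjusted p = 0.295 by limma), while humanlincRNA2350-_P1V4 was above it on 2 arrays and humanlincRNA2161+_P1V4 on 0. The direction of these 6 steps was the same under the 3 other scalings. The mouse GAPDH control spots were also dimmer on set 2, with Mouse-GAPDH_3 at an intensity of 3825 to 6883 on set 1 and 564 to 1205 on set 2, and what these probes share with them was not tested.

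Between the groups, the mean share of humanlincRNA probes above the negative limit was lower for ethanol vapor in both sets, but the difference did not pass the test. The share was 36.9% ± 7.96 on room air and 26.9% ± 4.74 on ethanol vapor (SD, n = 5 each). Within set 1 ethanol vapor replicate 4 was 6.75 percentage points under the room air mean, and within set 2 the ethanol vapor mean was 5.16 points under the room air mean. With the set kept, the difference was -5.73 points (SE 2.75, exact permutation test over 60 splits within the sets, two-sided, p = 0.117, smallest possible 0.0167, adjusted p = 0.417 over 5 measures). The unadjusted p was 0.0333 against the brightest negative probe (-5.17 points) and 0.0444 without room air replicate 1 (-6.89 points), by the same exact permutation test. Room air replicate 5 had the highest share in set 2 and room air replicate 9 (27.6%) lay below ethanol vapor replicate 7 (27.8%), so the groups overlapped in set 2. They overlapped in set 1 as well, where ethanol vapor replicate 4 (34.7%) lay above room air replicate 1 (34.3%). Over all probes the share was 52.5%, 59.5% and 62.7% on room air and 51.2% on ethanol vapor in set 1. In set 2 it was 50.8% and 44.2% on room air and 38.3%, 43.4%, 41.9% and 41.6% on ethanol vapor. The lower share on ethanol vapor was thus also that of the whole array.

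The other measures did not pass the test either. The share above the E1A limit differed by -0.863 points (SE 1.52, adjusted p = 0.683) and was 0.409 points higher after ethanol vapor within set 2. The share well above background differed by -6.43 points (SE 4.07, adjusted p = 0.417). The median level relative to the MM9NEGATIVE probes differed by -0.12 (SE 0.150, adjusted p = 0.604), and relative to the other noncoding probes by -0.05 (SE 0.0484, adjusted p = 0.528), all by the exact permutation test within the sets.

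For single probes, 0 of the 1092 passed an adjusted p of 0.05 between ethanol vapor and room air in limma with the set as a block, as was the case for 0% of all 60823 probes. The smallest adjusted p was 0.609. At an unadjusted p under 0.05 there were 115 humanlincRNA probes (10.5%, against 7.72% of all probes). That count was 58 without ethanol vapor replicate 4, 70 without room air replicate 5 and 173 without ethanol vapor replicate 7. Of these 61 (5.59%, against 4.13%) were higher and 54 (4.95%, against 3.59%) lower after ethanol vapor. The split depended on the scaling, with 46 higher and 68 lower for arrays scaled to their median, 51 and 61 after quantile normalisation, and 101 and 25 with the percentile over detected probes. The median difference was 0.06 over the humanlincRNA probes and 0.05 over all probes. For 745 probes (68.2%, against 79.7% of all) the 95% interval of the difference spanned less than a 2-fold rise or fall, and 23 (2.11%, against 0.893%) had a fitted difference beyond 2-fold. With no term for the set, 101 probes (9.25%, against 6.35%) had an unadjusted p under 0.05. Of these 92 (8.42%, against 6.01%) were higher and 9 (0.824%, against 0.34%) lower, again with 0 past the adjusted threshold.

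The counts at an unadjusted p under 0.05 differed with the brightness of the probes. Of the 525 probes above the negative limit on no array, 38 (7.24%) were higher and 5 (0.952%) lower, against 6.50% and 1.40% among all probes of the array above it nowhere. Of the 363 above it on some arrays, 15 (4.13%) were higher and 21 (5.79%) lower, against 3.80% and 3.12% among such probes of the whole array. Of the 204 above it on all arrays, 8 (3.92%) were higher and 28 (13.7%) lower, against 2.18% and 6.22% among the 20117 probes of the whole array that were above it everywhere. The turn from higher to lower with brightness was thus also that of the whole array. In those 204 the lower probes numbered 30 (14.7%) and the higher 4 (1.96%) under median scaling, against 7.68% and 1.14% of such probes of the whole array. After quantile normalisation they numbered 21 (10.3%) and 10 (4.90%), against 4.56% and 3.26%, and with normexp background correction 41 (20.1%) and 10 (4.90%), against 10.6% and 3.76%. With the authors' deposited values they numbered 22 (10.8%) and 10 (4.90%), against 4.53% and 3.24%. With the percentile over detected probes they numbered 15 (7.35%) and 12 (5.88%), where the whole array leaned the other way, with 3.07% lower and 4.92% higher. None of these probes passed the adjusted threshold.

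Of 1083 probes measured on all 10 arrays, 33 (3.05%, against 2.92% of all probes) had ethanol vapor above room air without overlap in both sets, and 40 (3.69%, against 3.30%) below. In set 2 alone, with 2 room air and 4 ethanol vapor arrays, 106 (9.79%, against 10.1%) were above and 77 (7.11%, against 8.05%) below. In set 1, where ethanol vapor has 1 array, 350 (32.3%, against 30.9%) were above and 253 (23.4%, against 23.2%) below. These shares are near those of the whole array. Opposite directions in the 2 sets were seen for 27 probes (2.49%, against 3.39%).

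The 5 probes higher after ethanol vapor with the smallest p are given as a description, since they were picked by that p. The probe humanlincRNA0080-_P1V4 read -3.50, -3.10, -3.68, -3.88 and -4.12 on room air replicates 1, 2, 3, 5 and 9, and -2.83, -2.76, -2.55, -2.81 and -2.27 on ethanol vapor replicates 4, 6, 7, 8 and 10. The groups did not overlap, and the difference was 1.11 (SE 0.215, adjusted p = 0.609, limma). Its intensity, 15.3 to 51.8, was above the negative limit on 0 arrays and had the background mark on 2 arrays with room air and 4 with ethanol vapor, so the change lies within the range of the negative probes. Its partner humanlincRNA0080+_P1V4 gave a difference of -0.52.

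The probe humanlincRNA0043-_P1V4 was the only one of these 5 above the negative limit on more than 1 array, namely on 7. It read -2.19, -2.56, -2.78, -2.03 and -1.86 on room air and -2.10, 0.01, -1.22, -0.19 and -0.45 on ethanol vapor, in the same order of replicates. Within set 2 the 4 ethanol vapor arrays were all above the 2 room air arrays, by 1.48 on average, and within set 1 the difference was 0.41. The fitted difference was 1.1 (SE 0.295, adjusted p = 0.609, limma).

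The remaining higher probes were not well above background on any array of set 1. They were humanlincRNA1262+_P1V4, humanlincRNA1365+_P1V4 and humanlincRNA0974+_P1V4, each with an adjusted p of 0.609 by limma over both sets. Differences are given only within set 2, where all 6 arrays had the background mark, and were 0.73, 1.07 and 0.71. On set 2 humanlincRNA1365+_P1V4 read -2.71 and -2.83 on room air and -1.36, -2.41, -2.21 and -0.81 on ethanol vapor, and humanlincRNA0974+_P1V4 read -1.72 and -2.04 on room air and -1.22, -1.37, -1.03 and -1.06 on ethanol vapor. In both cases the 4 ethanol vapor arrays of set 2 were above the 2 room air arrays, as they were for humanlincRNA1262+_P1V4. These 3 probes were above the negative limit on 0, 1 and 0 arrays, in the order first named.

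Of the 5 lower probes with the smallest p, 3 were above the negative limit on all 10 arrays. Levels of humanlincRNA2294+_P1V4 were -0.12, -0.97, 0.23, 1.14 and 0.88 on room air and -1.17, 0.26, 0.59, 0.23 and -0.06 on ethanol vapor. Levels of humanlincRNA0997+_P1V4 were 4.26, 4.23, 4.93, 5.76 and 5.89 on room air and 3.56, 5.34, 5.40, 5.56 and 5.08 on ethanol vapor, and those of humanlincRNA1006-_P1V4 were 1.76, 1.86, 3.04, 4.46 and 4.37 on room air and 0.45, 3.61, 4.07, 4.12 and 3.38 on ethanol vapor. In each of the 3, ethanol vapor was below room air without overlap within each set, while the groups overlap when the sets are pooled because set 2 is higher by 1.35, 1.52 and 2.65. The differences within the sets were -0.80 (SE 0.246), -0.64 (SE 0.198) and -1.03 (SE 0.324), each with an adjusted p of 0.609 by limma. Without the set term the differences were -0.26 (SE 0.448), -0.03 (SE 0.468) and 0.03 (SE 0.789), so the size of all 3, and the direction of humanlincRNA1006-_P1V4, rest on that term.

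Levels of humanlincRNA0740+_P1V4 were -1.68, -1.38, -0.95, -0.61 and -0.86 on room air and -2.0, -1.33, -1.33, -1.46 and -1.42 on ethanol vapor. Ethanol vapor was lower in both sets without overlap, with a difference of -0.65 (SE 0.171, adjusted p = 0.609, limma), and the probe was above the negative limit on 6 arrays. The last of the 5, humanlincRNA2406-_P1V4, passed the software's background mark on 3 of 5 arrays with room air and on 0 of 5 with ethanol vapor. Its intensities were 9.03, 37.7, 27.4, 38.6 and 38.6 on room air and 7.02, 22.2, 7.53, 14.0 and 11.4 on ethanol vapor. The adjusted p was 0.609 by limma, and no difference or fold is given because no ethanol vapor array had the mark. The partners of these 5 probes gave differences of -0.52, 0.00, -0.06, -0.13 and 0.16 in the order described.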

How the data were processed

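Per the file headers, the deposited intensities are linear, came from the scanner software Feature Extraction 11.0.1.1, are background-subtracted within an array and were not scaled between arrays. The authors' value table, used as an alternative, holds log2 values whose making the sources used here do not state. Levels leave out control and non-uniform spots, spots of a probe were averaged, and the 75th percentile over all probes that are not controls was subtracted from the log2 intensity. The per-probe test was limma 3.58.1 (R 4.3.3; lmFit, eBayes; two-sided; set as a fixed block; Benjamini-Hochberg over 60823 probes, threshold 0.05), and single values per array were compared by exact permutation tests in Python 3.11.15. Limits against controls are the 95th percentile of the 15 averaged MM9NEGATIVE probes or of the 350 E1A spots on the same array. Normexp (offset 50) used the median and background median signals, since no mean signal column is in the files used here. Other alternatives were other scalings, no set term, each set alone, other control limits, a filter on dim probes and each array left out.

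The 33 named probes follow a rule: the 8 highest and 3 lowest mean levels, the 5 smallest p in each direction, the 3 smallest and 3 largest SD among probes always above the negative limit, and the 3 largest set differences each way. The members, lists and rule were chosen with earlier results of these data known. The number of arrays limits the precision. The fits were also run on simulated data with known changes and independent normal errors, which does not test the scaling or the readings of dim probes.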

Additional observations from a re-analysis of the deposited data

Results flagged for a closer look

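In each group of 5 arrays, the gap between the most extreme array and its neighbour was divided by the range of the group (Dixon's ratio). Of 76 groups of values looked at, 15 passed the critical value. A rate of 1 in 20 would give about 3.8. The groups share the same arrays and the named probes were picked by these values, so that rate is no test of the 15. All 15 were in the ethanol vapor group and all singled out replicate 4, its only array in set 1. For the median level relative to the MM9NEGATIVE probes replicate 4 was the highest array, at 0.96 (ratio 0.814), and relative to the other noncoding probes the lowest, at -1.40 (ratio 0.840).

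Replicate 4 was the highest ethanol vapor array for humanlincRNA0065-_P1V4 (ratio 0.791), humanlincRNA0842-_P1V4 (0.811), humanlincRNA2410-_P1V4 (0.745), humanlincRNA2350+_P1V4 (0.810) and humanlincRNA2161-_P1V4 (0.847). It was the lowest for humanlincRNA0974+_P1V4 (ratio 0.890), humanlincRNA0740+_P1V4 (0.806), humanlincRNA0997+_P1V4 (0.761), humanlincRNA1006-_P1V4 (0.798), humanlincRNA0312-_P1V4 (0.899), humanlincRNA1932-_P1V4 (0.822), humanlincRNA0501-_P1V4 (0.837) and humanlincRNA2123+_P1V4 (0.767). Replicate 4 and set 1 cannot be told apart within the ethanol vapor group, and 6 of these probes were named for their difference between the sets.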

How the results depend on the processing

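No paired analysis was possible because the replicate numbers run across both groups and none is shared. No humanlincRNA probe passed the adjusted threshold for ethanol vapor in 20 alternative fits, and 198 of 199 alternative differences of the 10 probes named for that contrast kept their sign, with adjusted p from 0.403 upward. The exception, humanlincRNA1006-_P1V4, was 0.0276 without the set term. The median difference over the probes was 0.03 to 0.07 with any 1 array left out and 0.41 without the set term, and the unadjusted count was 58 (without ethanol vapor replicate 4) to 173 (without ethanol vapor replicate 7). Over all probes that count was 2558 and 7481 in the same fits.

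Ethanol vapor minus room air in the share above the negative limit ranged from -7.197 to -4.66 points with 1 array left out, and in the exact permutation test p was 0.0444 at -6.89 without room air replicate 1 and 0.0333 at -5.17 against the brightest negative. In the E1A share it ranged from -2.01 to 0.409 (without ethanol vapor replicate 4, and so within set 2). The share well above background was 2.05 points higher without the set term (exact permutation p = 0.794) and -8.85 to -4.55 with 1 array left out. The difference in median level against the negatives ranged from -0.20 (without room air replicate 1, exact permutation p = 0.0222) to -0.0824. Against other noncoding probes it ranged from -0.0864 to 0.0147 (without ethanol vapor replicate 4, within set 2), and was 0.10 without the set term and 0.0164 with normexp.

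Between the sets, 620 to 751 probes were called with 1 array left out (503 to 620 higher, 117 to 135 lower), 316 and 314 higher and lower under median scaling, and 248 and 284 after quantile normalisation. The E1A share difference was -5.04 to -3.42, the latter without room air replicate 3 (exact permutation p = 0.0595). The probes above the negative limit everywhere numbered 204 to 213 with 1 array left out, 408 against the median negative and 334 in set 1 alone. The cause of these changes was not tested.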
